A study of Mus musculus with 6 samples.

Results

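Ebf1 and Ebf3 are the measured members of the early B-cell factor family of transcription factors in a study of mouse retinal cells that received a Sox11 virus before optic nerve injury. They were found as the genes named Ebf1, Ebf2, Ebf3 or Ebf4 in the deposited table, which gave 2 of 15450 named genes, and 4 of 26334 named transcript rows. Ebf2 and Ebf4 were not analysed here. Ebf1 (ENSMUSG00000057098) lies at chr11:44617317-45008091 on the plus strand and Ebf3 (ENSMUSG00000010476) at chr7:137193673-137314445 on the minus strand (GRCm38, which is mm10, GENCODE M21). Both were picked because their values differed between the virus groups, so that difference is described for them without a test.

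Mice that were about 3 to 4 weeks old at the start had eyes injected with an adeno-associated virus (AAV) that carried PLAP, an alkaline phosphatase used as an inert cargo (AAV-Control), or Sox11, a transcription factor of developing neurons (AAV-Sox11). After 2 weeks with the virus, both groups had an optic nerve crush, 3 days before their retinas were taken. Live cells that bound an antibody to the surface protein Thy1 were sorted, and polyadenylated RNA was amplified with a kit for very low input. Each group has 3 libraries, A, B and C, and each library pools 3 retinas of 3 animals; libraries with the same letter were prepared on the same day, per the series text. The sources used here name neither the mouse strain nor the promoter of the virus, and no uninjured library is in the comparison. AAV-Control A stood apart from the other libraries in blood vessel, bipolar and glial genes, so the Ebf differences are also given without it.

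Ebf proteins bind DNA as dimers through a zinc-coordinating domain found only in this family, followed by an IPT domain and a helix-loop-helix that holds the dimer together. Ebf1 is best known as the factor that commits lymphoid progenitors to the B-cell lineage, and the family also acts in olfactory neurons, fat cells and the developing nervous system. In the developing retina, Ebf genes are expressed in newly formed neurons of the inner layers and take part in the specification of ganglion, amacrine, bipolar and horizontal cell subtypes. Zfp423 and Zfp521 are zinc finger proteins that bind Ebf proteins and alter their activity.

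The 3 Ebf1 rows of the table are annotated transcripts that part ways inside the gene, and 1 of them ends before most of the protein is encoded. Ebf1-201 (ENSMUST00000081265) has 16 exons, 5981 bases and 591 codons. Ebf1-202 (ENSMUST00000101326) has 3422 bases in 16 exons that match those of Ebf1-201, except for 3 more bases in exon 9 and 2562 fewer in exon 16, the last. Ebf1-207 (ENSMUST00000149997), which GENCODE labels a processed transcript without a reading frame, has 6 exons and 3968 bases at chr11:44618116-44646820. It shares 617 bases with Ebf1-201, and its exon 6 then runs on for 3351 bases into intron 6, which is 225622 bases long in Ebf1-201. That intronic stretch is 84.5% of Ebf1-207. The junctions are shown because the difference between the transcripts described below rests on them. Both lines start with the last 30 bases of shared exon 6 (chr11:44643401-44643469, plus strand, GRCm38) in lower case. The capitals are the next 30 bases, exon 7 (chr11:44869092-44869173) in Ebf1-201 and the start of intron 6 in Ebf1-207, read from the GENCODE M21 transcripts.
Ebf1-201: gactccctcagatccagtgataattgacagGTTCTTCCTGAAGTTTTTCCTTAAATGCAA
Ebf1-207: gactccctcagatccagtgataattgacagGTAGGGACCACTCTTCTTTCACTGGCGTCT
If the reading frame of Ebf1-201 is followed into Ebf1-207, a stop codon begins 1 base into the intron. The frame holds 185 codons up to there, against 591 in the complete transcript. The polyadenylation hexamers AATAAA and ATTAAA occur 0 times in the last 60 bases of Ebf1-207. Ebf3 has 1 row, Ebf3-202 (ENSMUST00000106118), with 17 exons and 3736 bases. Over 1749 aligned coding bases, Ebf1-201 and Ebf3-202 were 79.4% identical, and their longest identical run was 24 bases.

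**Figure D1:**
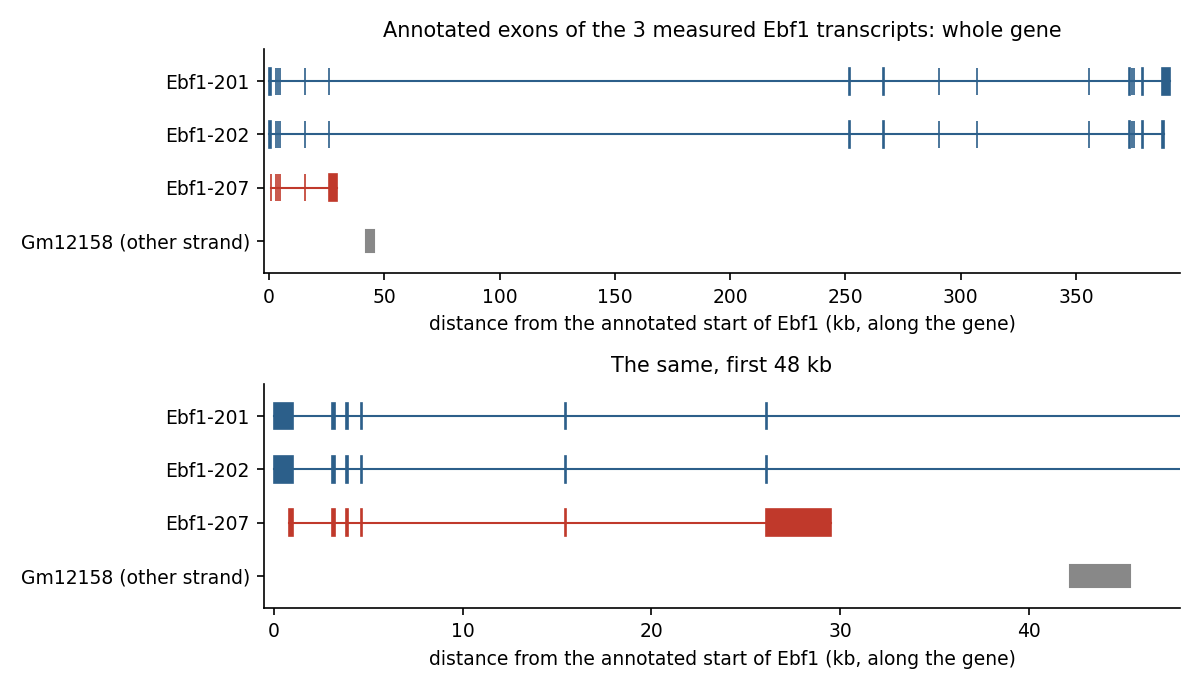
Annotated exons (boxes) and introns (lines) of the 3 measured Ebf1 transcripts and the antisense gene Gm12158, drawn to scale as distance in kb from the annotated start of Ebf1, over the whole gene (top) and its first part (bottom). Ebf1-207 ends inside the long intron 6 that separates exon 6 from exon 7 in Ebf1-201 and Ebf1-202, and Gm12158 lies in that same intron, beyond the end of Ebf1-207.

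Both Ebf genes had lower values in every AAV-Sox11 library than in any control library. Values are the authors' normalized values, which are scaled between libraries and not corrected for transcript length. Ebf1, summed over its 3 rows, had 2650, 2731 and 3344 in AAV-Control A, B and C and 1553, 1558 and 1798 in AAV-Sox11 A, B and C. Ebf3 had 95.14, 107.9 and 117.7 in the controls and 42.75, 47.77 and 60.33 with AAV-Sox11. The groups did not overlap for either gene, and in both genes library C was the highest of its group. Of all 15450 genes, 14.4% were lower with AAV-Sox11 without overlap; since the members were chosen on this contrast, their count is not read against that share. The Ebf1 mean was 2909 ± 379 in AAV-Control and 1636 ± 140 in AAV-Sox11 libraries (SD, n = 3), a level 1.77-fold lower. On the log2(value + 1) scale the Ebf1 difference was -0.83 (SE 0.11), and -0.77, -0.81 and -0.90 in the same-day pairs A, B and C. For Ebf3 the means were 106.9 ± 11.3 and 50.29 ± 9.06, a level 2.12-fold lower and a difference of -1.08 (SE 0.19). The Ebf3 pairs differed by -1.14, -1.16 and -0.95. Without AAV-Control A the difference was -0.89 for Ebf1 and -1.16 for Ebf3. The summed Ebf1 value, not corrected for length, had a mean over the libraries above that of 92.9% of genes, and Ebf3 was above 33.6%. Because each library is a bulk of sorted cells, fewer cells that express an Ebf gene and less Ebf RNA per cell cannot be told apart.

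**Figure D2:**
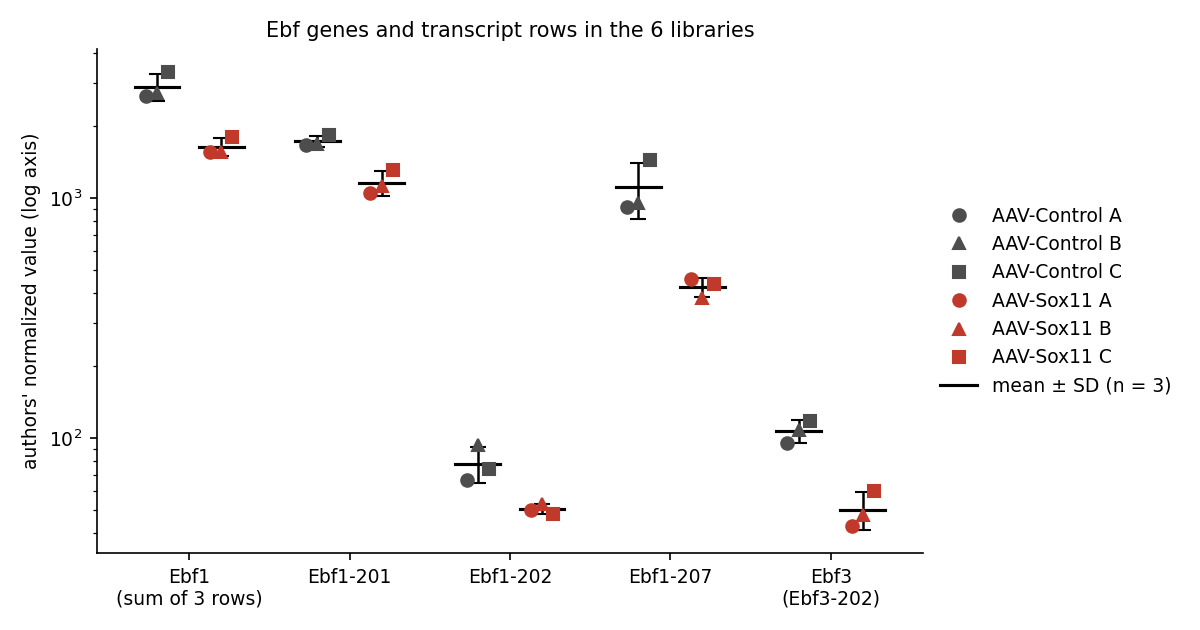
Normalized values (log axis) of Ebf1, its 3 transcript rows and Ebf3 in each of the 6 libraries, with the mean and SD of each group (n = 3). In each of the 5 columns the 3 AAV-Sox11 libraries sit below the 3 AAV-Control libraries, with the widest distance for Ebf1-207.

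The Ebf1 rows did not differ by the same amount, and the non-coding Ebf1-207 had the most negative difference of the 4 Ebf rows. Ebf1-201 had 1663, 1681 and 1825 in controls A, B and C and 1045, 1120 and 1313 with AAV-Sox11. Its means, 1723 ± 88.6 and 1159 ± 138, gave a 1.49-fold lower level and a log2 difference of -0.58 (SE 0.11). Ebf1-201 was the highest of the 4 rows in every library. Ebf1-202 had 66.98, 93.16 and 74.29 in the controls and 50.05, 52.96 and 48.27 with AAV-Sox11, with a log2 difference of -0.61 (SE 0.18). Ebf1-207 had 920.4, 957.1 and 1445 in the controls and 458.7, 384.2 and 436.4 with AAV-Sox11. Its log2 difference was -1.35 (SE 0.18), a level 2.54-fold lower (1108 ± 293 and 426.4 ± 38.2). None of the 3 rows overlapped between the groups. The spread of the Ebf1-207 controls came from library C, and without it the difference was -1.14. The same-day pairs of Ebf1-207 differed by -1.0, -1.31 and -1.73, and those of Ebf1-201 by -0.67, -0.58 and -0.47. Fold changes in the authors' deposited table were -0.57 for Ebf1-201, -0.63 for Ebf1-202, -1.38 for Ebf1-207 and -1.09 for Ebf3-202 on the log2 scale.

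Per length, the short and the complete Ebf1 transcript had like means in the controls and parted with AAV-Sox11. Ebf1-201 had 288 ± 14.8 per kb of transcript in the controls and Ebf1-207 had 279.1 ± 73.9. The like means rested on control C, the highest for both. The controls ranged from 278.1 to 305.1 per kb for Ebf1-201 and from 232 to 364.3 for Ebf1-207. With AAV-Sox11 the values per kb were 193.9 ± 23.2 for Ebf1-201 and 107.5 ± 9.63 for Ebf1-207. Ebf3-202 had 28.62 ± 3.03 and 13.46 ± 2.42 per kb, and Ebf1-202 22.84 ± 3.95 and 14.74 ± 0.693, so these low rows lay close to each other on the length-corrected scale. As a share of the Ebf1 sum, Ebf1-207 held 34.7%, 35% and 43.2% in controls A, B and C and 29.5%, 24.7% and 24.3% with AAV-Sox11. The means were 37.7% ± 4.81 and 26.2% ± 2.93, and the groups did not overlap. Ebf1-202 stayed near the same proportion of Ebf1-201, at 4.55% ± 0.862 and 4.4% ± 0.626. Ebf3 amounted to 3.69% ± 0.231 of the Ebf1 sum in the controls and 3.06% ± 0.302 with AAV-Sox11. How the authors divided reads of the shared exons between the transcripts is not stated in the sources used here, so a row value is their assignment and not a count of full-length molecules.

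**Figure D3:**
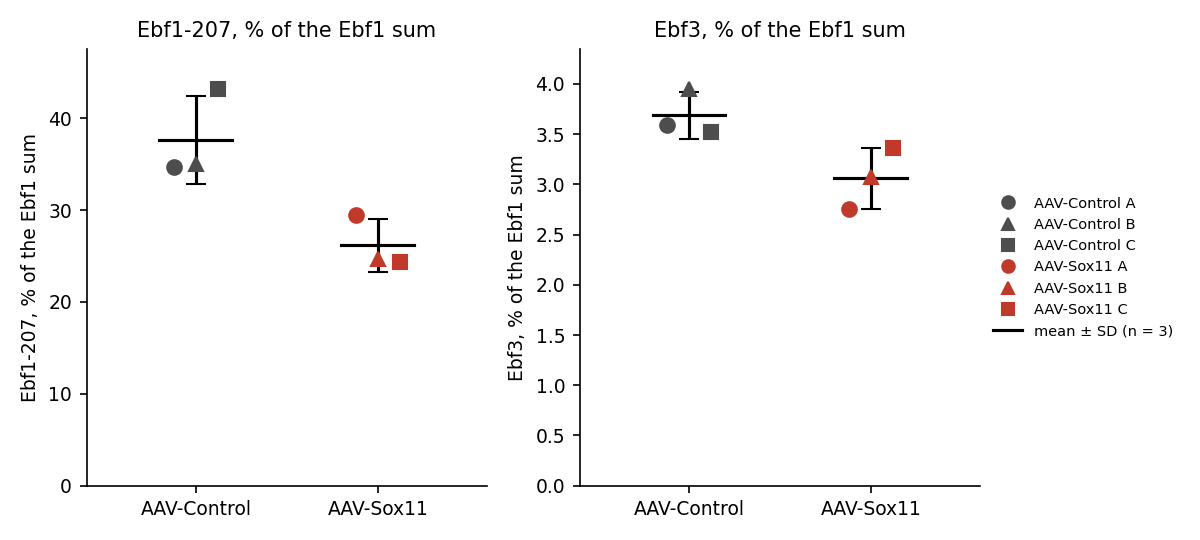
Ebf1-207 (left) and Ebf3 (right) as a percentage of the Ebf1 sum in each library, with group means and SD (n = 3) and axes from 0. Ebf1-207 held between 34.7% and 43.2% in the AAV-Control libraries and between 24.3% and 29.5% in the AAV-Sox11 libraries.

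Other genes also had rows of the non-coding kind that were lower relative to their coding rows. Among 26103 named rows matched to GENCODE M21, the median log2 difference was 0.07 for 13426 protein-coding rows, -0.10 for 2894 processed-transcript rows and -0.05 for 6008 retained-intron rows. In 3272 genes with both a coding and a non-coding row, the non-coding minus coding difference had a median of -0.14 and quartiles of -0.39 and 0.10. The value for Ebf1 was -0.75, and 217 of these genes (6.63%) were at or below it. Ebf1 thus lay toward the lower end of a distribution that was itself shifted below 0. Because Ebf1 was chosen on this same contrast, its place there is a description and not a test. Ebf1-207 minus Ebf1-201 alone was -0.77, -0.61 without AAV-Control C, and -0.53 with both libraries of letter C left out. With a sex index as a covariate it was -0.32. This index, the mean log2 value of 4 Y-linked genes minus that of Xist, was used as a proxy for the mix of sexes in each pool. It was not checked against the recorded sex of the animals. Its values were -6.82, -6.79 and -5.26 in controls A, B and C and -6.86, -8.11 and -8.45 with AAV-Sox11. Sex index and virus group thus partly ran together and cannot be fully told apart.

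Intron 6 of Ebf1 also holds Gm12158, a gene on the opposite strand at chr11:44659522-44662676. Gm12158 had 131.1, 141.2 and 204.6 in the controls and 116.8, 79.97 and 67.37 with AAV-Sox11. Like Ebf1-207 it was highest in control C, its groups did not overlap, and its log2 difference was -0.86 (SE 0.26, limma adjusted p = 0.105, Benjamini-Hochberg over all genes). The Gm12158 difference was -0.21 (adjusted p = 0.55) with the index of Y-linked genes as a covariate and -0.49 (adjusted p = 0.306) with both libraries of letter C left out. The sources used here do not say whether the counting used strand, so reads of Gm12158 and of the Ebf1 intron cannot be told apart. The genes that flank the Ebf loci gave smaller values. Rnf145, a ubiquitin ligase gene before Ebf1, had a log2 difference of 0.27 (adjusted p = 0.305), Clint1, a clathrin adaptor gene after it, -0.08 (adjusted p = 0.642), and the glutaredoxin gene Glrx3, near Ebf3, 0.08 (adjusted p = 0.62). The antisense genes annotated across Ebf3 were not analysed here.

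Library totals of the deposited whole numbers were 10747985 to 11546892, and over all 15450 genes limma called 123 higher (0.796%) and 235 lower (1.52%) with AAV-Sox11 at an adjusted p under 0.05, together 2.32%, while 3762 (24.3%) had an unadjusted p under 0.05. Sox11 had 131.1, 110.8 and 100.3 in the controls and 179.3, 233.7 and 283.6 with AAV-Sox11, a log2 difference of 1.0 (SE 0.20, adjusted p = 0.0504), so the label held in each library although the test was just missed. With the same-day letter as a block, the calls were 323 higher and 414 lower. No call held when 1 AAV-Sox11 library was removed: with A, B or C left out, 0 genes passed in limma, while 3120, 1942 and 2953 had an unadjusted p under 0.05. The deposited values lack spread along 1 direction across the libraries, and 57.7% of its squared weight fell on AAV-Sox11 B. With that direction as a covariate, 0 genes passed, and 2582 had an unadjusted p under 0.05. The verbs rose and fell below stand for the calls without these terms.

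The sorted cells were labelled as ganglion cells, and the libraries held transcripts of many retinal cell types. Ganglion cell markers (11 of 12 measured) summed to between 7349 and 10728 in the controls and between 9271 and 12146 with AAV-Sox11. Rbpms, a ganglion cell marker, was at 34.73 to 57.29 in all 6 libraries, and Thy1, the sorted protein's gene, at 1759 to 3272. Of these markers Stmn2, a growth-associated microtubule regulator, rose (log2 difference 1.04, adjusted p = 0.0447), and with the same-day block Nefh and Pou4f2 passed too (adjusted p = 0.0381 and 0.0383). In limma 5 of the 11 had an unadjusted p under 0.05, against 24.3% of all genes. Since Ebf genes are expressed in several inner retinal neurons, the sums of their markers are set beside Ebf1 and Ebf3.

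Among inner retinal neurons, the summed bipolar and horizontal markers had lower values with AAV-Sox11, and markers of nGnG (neither GABAergic nor glycinergic) and glycinergic amacrine cells went both ways. The 13 of 14 bipolar markers measured summed to between 8679 and 14728 in the controls and between 7098 and 8197 with AAV-Sox11. All 13 had a negative difference, the median was -0.72, and 0 passed the test in limma. At an unadjusted p under 0.05 there were 3 of 13, a share near the 24.3% of all genes. The most negative was Grik1, a kainate receptor gene of OFF bipolar cells, with 1608, 287.3 and 777.7 in the controls and 215.8, 138.1 and 165.9 with AAV-Sox11 (log2 difference -2.05, adjusted p = 0.0838, and 0.0345 with the block). The 3 of 6 horizontal cell markers measured summed to between 10744 and 12146 in the controls and between 6599 and 7377 with AAV-Sox11. Nearly all of that was Prox1, a homeobox gene of horizontal, AII amacrine and bipolar cells, which fell from 11082 to 6624 (log2 difference -0.74, adjusted p = 0.0153). Of the 7 nGnG and glycinergic markers, 4 had positive and 3 negative differences, with a median of 0.01. Dab1, the reelin adaptor of AII amacrine cells, fell from 3817 to 2251 (log2 difference -0.76, adjusted p = 0.0132), and Lhx9 rose (log2 difference 1.54, adjusted p = 0.0465). Dab1 made up most of the list's sum, which was between 4460 and 5554 in the controls and between 3043 and 3272 with AAV-Sox11. Slc6a9, the glycine transporter GlyT1, fell by 0.93 on the log2 scale (adjusted p = 0.0481), while the 10 amacrine markers as a whole had a median of 0.29. Of those 10, limma called 2 lower and 0 higher, and 4 had an unadjusted p under 0.05. The bipolar sum and the horizontal sum, which was nearly all Prox1, did not overlap between the groups. Rod and cone markers (12 of 12) had a median of -0.69, with sums of 38009 to 61386 and 23636 to 43301, which overlapped. Of these 0 were called, and 2 of the 12 had an unadjusted p under 0.05, against 24.3% of all genes. With the block 4 were called lower, among them Gnat1 and Sag, against 414 of all 15450 genes. The part of any of these cell types in the Ebf values was not tested.

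Blood vessel, microglial and other markers were also set beside the Ebf genes, and the part of these cells in the Ebf values was not tested. Ebf1 is also known from pericytes, and Rgs5, a pericyte gene, had 15449, 3265 and 2898 in controls A, B and C and 5922, 6137 and 5457 with AAV-Sox11. Control A had the highest Rgs5 and the lowest Ebf1 of the controls, although Ebf1 was close in controls A and B (2650 and 2731). The 7 of 13 endothelial and mural markers measured summed to 20956 in control A and 4963 to 5775 in the other controls. Of these genes 0 passed in limma, also at an unadjusted p under 0.05. Markers of microglia and B cells (7 of 11 measured) summed to between 2384 and 5827 in the controls and between 2168 and 3032 with AAV-Sox11, with a median of -0.53. They were highest in control C, as were Ebf1 and Ebf3, and their sums overlapped between the groups. Of these markers 0 were called (3 of 7 at an unadjusted p under 0.05, against 24.3% of all genes), or with the block 1, Tmem119 (adjusted p = 0.0287). Starburst amacrine markers (4 of 7) and those of Müller glia and astrocytes (8 of 10) had medians of -0.16 and 0.03, with 0 called in either list and 1 and 0 genes at an unadjusted p under 0.05.

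**Figure D4:**
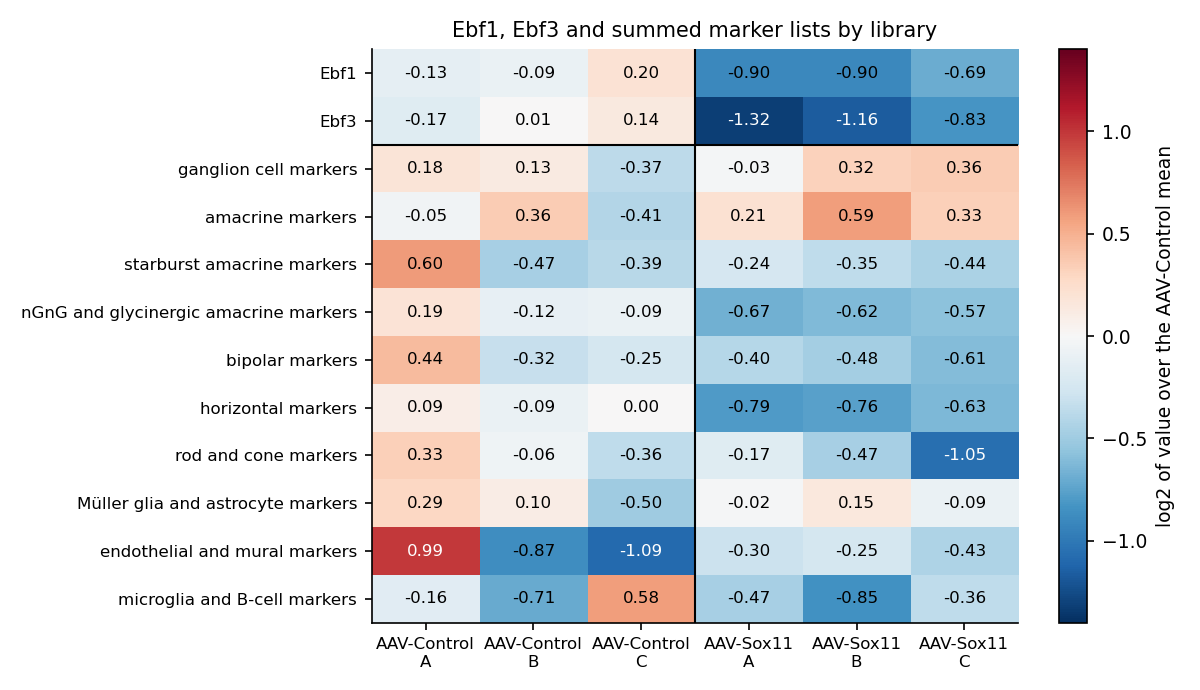
Values of Ebf1 and Ebf3 and summed values of 10 marker lists in each library, as log2 of the ratio to the AAV-Control mean (red above, blue below; the number is in each cell). Ebf1 lies between -0.90 and -0.69 in the AAV-Sox11 libraries, where the horizontal list lies between -0.79 and -0.63; the endothelial and mural list is high in control A (0.99) and at -0.87 and -1.09 in controls B and C.

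Of the proteins that act together with Ebf factors, Zfp423 fell and the others did not pass the test. In the list of partners and cofactors, 10 of 11 genes were measured, with a median log2 difference of 0.19 against 0.03 over all genes. Of the 10, limma called 1 lower and 0 higher, where 1.52% of all genes were called lower. An unadjusted p under 0.05 was found in 2 of the 10, against 24.3% of all genes. Zfp423 had 252.4, 219.6 and 247 in the controls and 118.8, 112.2 and 125.7 with AAV-Sox11. The means were 239.7 ± 17.6 and 118.9 ± 6.76, a log2 difference of -1.0 (SE 0.12, adjusted p = 0.0169). No AAV-Sox11 library came near the lowest control. Taking the highest transcript row in place of the sum gave -0.86 and an adjusted p of 0.0779; without AAV-Sox11 A, B or C the adjusted p was 0.0729, 0.139 or 0.0707, and it was 0.0132 to 0.154 over all alternatives. Its relative Zfp521 had a difference of 0.08 (adjusted p = 0.842). The other 9 partners all had positive differences, up to 0.43 for Cbfb, the partner subunit of Runx factors (adjusted p = 0.482). They included Tcf3 and the coactivators Ep300 and Crebbp.

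Of the genes known as Ebf targets in other tissues, Ucp1 passed the test. Of 15 B-lineage genes 5 were measured and 0 passed in either direction in limma (1 at an unadjusted p under 0.05), with a median of 0.14, which was -0.02 with the index of Y-linked genes as a covariate. The adaptor gene Blnk was the lowest (-0.57, adjusted p = 0.287). The B-lineage genes that were not measured, among them Pax5 and Cd79a, were not analysed here. Of 9 targets from olfactory neurons, fat and cell-cycle control 6 were measured, 1 was called lower and 0 higher, with a median of -0.52. In limma 3 of the 6 had an unadjusted p under 0.05, against 24.3% of all genes. Ucp1, the uncoupling protein of brown fat, fell from 26.21, 26.47 and 27.98 in the controls to 7.306, 8.312 and 11.06 (log2 difference -1.51, SE 0.25, adjusted p = 0.031). These are low values, and Ucp1 would not have entered the test at a minimum mean of 20. Without AAV-Control A or C the adjusted p of Ucp1 was 0.0629 or 0.0524. The highest of that list was the cell-cycle inhibitor Cdkn1a (0.64, adjusted p = 0.207). Omp, a marker of olfactory sensory neurons, had a difference of -1.28 (adjusted p = 0.117).

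Among the transcription factors of retinal neurogenesis, Neurod4 fell and Prdm13 had a like value. In the list of bHLH and related neurogenic genes, 10 of 15 were measured, with 1 lower, 0 higher and a median of -0.28. In limma 4 of the 10 had an unadjusted p under 0.05, against 24.3% of all genes. Neurod4, a bHLH factor of bipolar and amacrine development, fell from 10483, 7086 and 7891 to 4588, 4745 and 5379 (log2 difference -0.77, SE 0.15, adjusted p = 0.0467). Prdm13, a regulator of glycinergic and GABAergic amacrine fates, had the same difference, -0.77, and missed the threshold (adjusted p = 0.0641). With the same-day block 3 of these genes were called lower, Neurod4, Prdm13 and Neurod1 (adjusted p = 0.0416, 0.0312 and 0.0488). That fit called 414 of all 15450 genes lower. Without AAV-Control A or C the adjusted p of Neurod4 was 0.06 or 0.0554.

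Ganglion cell transcription factors had positive differences in 5 of 9 measured genes, of 17 listed, with a median of 0.37. In limma 0 passed in either direction without the block (3 of 9 at an unadjusted p under 0.05, against 24.3% of all genes). The median was 0.11 without AAV-Control C, and -0.11 with the sex index as a covariate. Pou4f2, which drives ganglion cell differentiation, was the highest (1.47, adjusted p = 0.0669), and the T-box gene Eomes had 1.16 (adjusted p = 0.0562). With the block both were called higher (adjusted p = 0.0383 and 0.0445), as were 323 of all 15450 genes. The lowest was Foxp1 (-0.40, adjusted p = 0.146).

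Amacrine transcription factors moved both ways, with 12 of 13 measured, 2 lower, 1 higher and a median of -0.10, which was 0.06 without AAV-Control A. There were 6 positive and 6 negative differences. In limma 8 of the 12 had an unadjusted p under 0.05, against 24.3% of all genes. The list was chosen with earlier results of these data known, so that share is a description. Tcf4, an E protein that dimerizes with bHLH factors, fell from 1872, 1948 and 1907 to 1312, 1229 and 1141 (log2 difference -0.64, SE 0.08, adjusted p = 0.0169). Pax6, the homeobox regulator kept on in amacrine and ganglion cells, fell from 3372 ± 292 to 2225 ± 80.2 (log2 difference -0.60, SE 0.08, adjusted p = 0.022, and 0.0537 without AAV-Control A). Pax6os1, an antisense gene, overlaps it. Lhx9, a LIM-homeodomain gene of a subset of amacrine cells, rose from 33.76 ± 12 to 96.7 ± 16.2 (log2 difference 1.54, SE 0.29, adjusted p = 0.0465, and 0.0869 without AAV-Control A). The lowest difference was that of Tfap2c (-0.74, adjusted p = 0.126), an AP-2 factor. Lists of markers and of transcription factors share Pax6 and Lhx9, so these genes count in both.

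**Figure D5:**
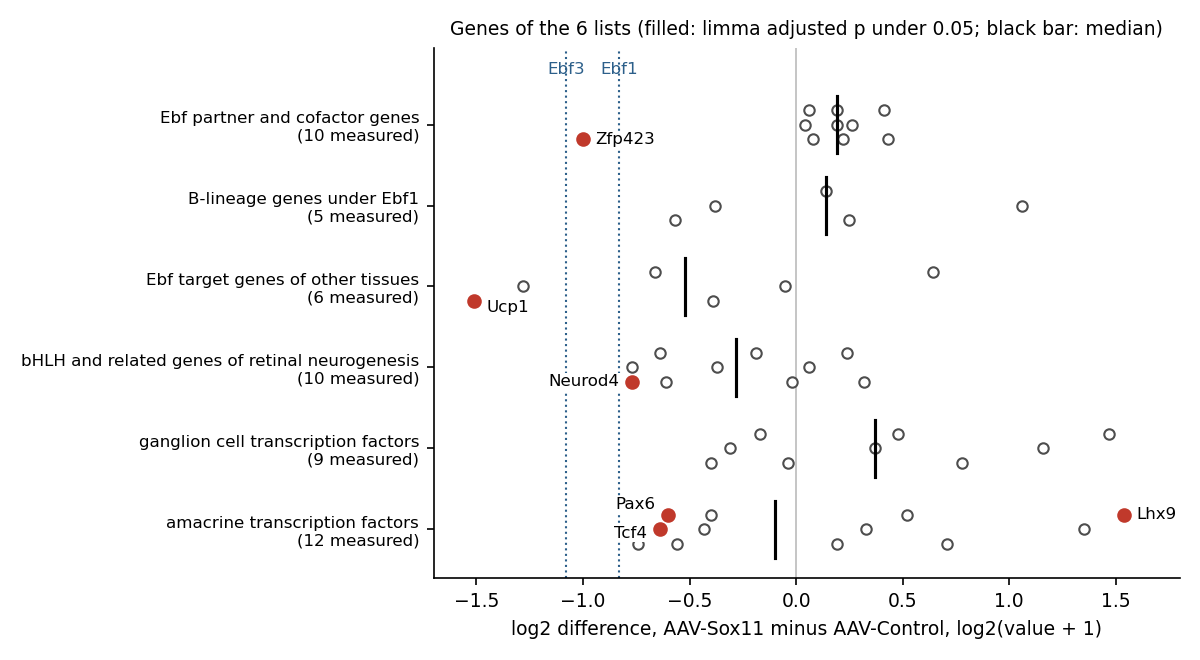
Log2 differences (AAV-Sox11 minus AAV-Control) of the measured genes of 6 lists, each point 1 gene, filled where the limma adjusted p is under 0.05, with the list median as a black bar and the Ebf1 and Ebf3 differences as dotted lines. Zfp423 (-1.0) is the only one of 10 partner genes to the left of 0, and Lhx9 (1.54) is the only filled point to the right of it.

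Ebf1 and Ebf3 themselves ran closely together over the 6 libraries, with a Pearson r of 0.985 on the log2(value + 1) scale and of 0.83 after the group means were subtracted. Such correlations are descriptions: the 6 points fall into 2 groups chosen to differ, share same-day pairs and lack 1 direction of spread. Among 10215 genes with a mean of at least 50, 168 had an r of at least 0.95 with Ebf1 and 144 with Ebf3. The genes most like Ebf1 were Slc2a13, a proton and myo-inositol transporter (r = 0.998), Hnrnpr, Rasgef1a, Armt1 and Sptbn4, a beta spectrin of axon initial segments. The log2 difference of Slc2a13 was -0.71, and those of Hnrnpr, Rasgef1a, Armt1 and Sptbn4 were -0.30, -0.31, -0.35 and -0.57. The genes most like Ebf3 were Alk, a receptor tyrosine kinase of neurons (r = 0.997), Kifc2, Zfp804a, Lsm11 and Nmnat2, an NAD-synthesizing enzyme that maintains axons. Their log2 differences were -1.0 for Alk, -0.35 for Kifc2, -0.56 for Zfp804a, -0.36 for Lsm11 and -0.53 for Nmnat2. The most opposed to Ebf1 were Smarca5, a chromatin remodelling ATPase (r = -0.998), Mmgt1, Fbxl14, Yrdc and H3f3b. The most opposed to Ebf3 were Entpd6 (r = -0.999), Erlec1, Ptrhd1, Rb1 and Ints7. Rb1, the retinoblastoma gene, had a log2 difference of 0.42, and the other genes opposed to Ebf3 had 0.24 (Erlec1, Ptrhd1) to 0.37 (Entpd6). Those opposed to Ebf1 had 0.23 (Mmgt1) to 0.47 (Yrdc). Genes chosen for likeness to an Ebf gene had to differ between the groups in a set direction, so these differences are given without a test. The lists of Ebf1 and Ebf3 shared 0 genes.

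Promoter windows of 300 bases around RefSeq gene starts (GRCm38.p6) were searched on both strands for the palindromic Ebf motif, TCCC and GGGA with any 2 bases between them, and for the SOX motifs AACAATG and AACAAAG. Of 32851 windows, 297 (0.904%) held the Ebf motif and 3074 (9.36%) a SOX motif. The 2 windows of Ebf1, the 1 of Ebf3 and the 2 of Zfp423 held 0 matches of either, which says only that these letters are not in those windows. Among 118 measured genes with an Ebf motif in a window, 0 were called higher and 1 lower, BC034090, with a median log2 difference of 0.03. For comparison, 10069 measured genes with any window had 91 higher, 152 lower and a median of 0.05. The 708 genes with a SOX motif had 6 higher, 11 lower and a median of 0.04.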

How the data were processed

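RNA of sorted Thy1-positive retinal cells was measured in 6 libraries (3 AAV-Control, 3 AAV-Sox11). Per the submitters' processing notes, CASAVA 1.8.2, edgeR (no version) and build mm10 were used. The sources used here name no aligner, read counter, strand setting or annotation. The whole-number columns that the authors deposited are treated as a score, adjusted values rounded to whole numbers: of 5 directions in which 6 libraries can differ, the fifth had an SD of 9.481e-05 natural log units against 0.08712 for the fourth. The authors' normalized columns, a signal, are these times 1 factor per library (0.9649 to 1.043). The authors also deposited log2 fold changes, quoted for 4 rows, and p-values, not used. Since the values are not read counts, count models were not run. Columns of other samples numbered 0. Totals stand for depth only approximately, so no counting interval is given.

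Transcript rows were summed by gene name; 357 rows without a name (0.422% to 0.517% of each total) were left out. Genes with a mean of at least 1 were tested with limma-trend (limma 3.58.1, R 4.3.3) on log2(value + 1), Benjamini-Hochberg over 15450 genes, threshold 0.05. Fold changes on that scale understate low genes. The script was tested on simulated data. P-values rest on pools of animals. Letters pair the libraries because the series text has both groups of a replicate prepared on the same day; deviations of same-letter libraries from their group means correlated at 0.0025, 0.793 and 0.236. Members and gene lists were chosen with earlier results of these data known. Named are the Ebf genes and rows, Sox11, list genes that passed and the extremes of each list, and the 5 genes most alike and most opposed to each Ebf gene; the marker genes, flanking genes, Gm12158 and other genes named were chosen after their values were seen. Lists come from textbook knowledge. Some genes that this rule would name are not reported here. Alternatives covered scaling, pseudocounts of 0.5 and 8, a minimum mean of 20, variance models, covariates and left-out libraries.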

Additional observations from a re-analysis of the deposited data

How the results depend on the processing

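The Ebf differences kept their direction under every alternative run: Ebf1 ranged from -0.89 to -0.58 (the last with its highest row alone, -0.58) and Ebf3 from -1.22 to -0.97. Genes called higher and lower, 123 and 235, became 323 and 414 with the replicate block, 0 and 0 with the removed direction or the sex index as a covariate (2582 and 2702 at an unadjusted p under 0.05 in limma), and 63 and 69 with block and direction together, a fit chosen after the data were seen. Genes lower were 355 with upper-quartile and 356 with library size scaling (100 and 103 higher), and genes higher 57 with no variance trend (170 lower). With both libraries of letter A, B or C left out, 1, 1 and 0 were higher and 0 lower. Leaving out 1 library gave 0 to 339 higher and 0 to 406 lower: 51 and 87 without AAV-Control A, 339 and 406 without B, 185 and 210 without C, and 0 without any of the AAV-Sox11 libraries. The cause was not tested.

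Numbers called per list moved with these counts. With the pair letter as a block, 3 neurogenic and 2 ganglion cell factors were called. With no variance trend 0 neurogenic and 1 amacrine factor were called, with a minimum mean of 20 the other-tissue targets had 0, and with the highest row the partners had 0. With the removed direction (alone or with the block), the sex index or both libraries of a letter left out, the partners, targets, neurogenic and amacrine factors had 0. Leaving out 1 library gave 0 to 1 partners, 0 to 2 targets, 0 to 2 neurogenic, 0 to 2 ganglion cell and 0 to 5 amacrine factors. Of the 6 lists, the block changed no other call except Meis2, called higher with it. With 3 pools a group and 1 direction missing, errors may be too small.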
